A study of Mus musculus with 23 samples.

Results

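The genes described here are the enzymes that build cholesterol in the liver together with the regulators and carriers that respond to sterols through the transcription factor SREBP2. A list of 32 gene names was matched to the gene names printed in the deposited array files, and for each gene the brightest probe over all arrays was read. Of the 32 names, 31 had at least 1 probe and all 31 chosen probes passed the filter on dim signals, while Acat2, a thiolase at the entry of the pathway, had no probe of that name and has no value here. The array as a whole held 37074 gene names, of which 21056 had a probe past the filter. Liver RNA from 23 male mice on the C57Bl6/J background was hybridised to Agilent 1-colour arrays, 1 array per mouse. WT CONT mice (n = 6) were wild type and received corn oil, and WT PCN mice (n = 5) were wild type and received pregnenolone 16α-carbonitrile (PCN), a ligand of the nuclear receptor PXR, at 100 mg/kg by daily intraperitoneal injection for 4 days. Pxr-/- CONT (n = 6) and Pxr-/- PCN mice (n = 6) lacked PXR and received the same vehicle or the same PCN course. All mice had free access to food and were killed at Zeitgeber time 6, which was 6 h after the last injection. WT mice were bought at 6 weeks of age, Pxr-/- mice, whose age was not given in the sources used here, came from a colony kept in the facility, and all had 2 weeks to acclimatize. An effect of genotype and an effect of colony cannot be told apart.

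Cholesterol is made from acetyl-CoA in a long chain of steps: the mevalonate pathway yields isoprenoid units, these are joined into squalene, squalene is closed to lanosterol, and lanosterol is trimmed and reduced to cholesterol. The liver sets the rate largely by transcription. SREBP2, encoded by Srebf2, is held in the endoplasmic reticulum with its escort SCAP by the INSIG proteins when sterols are plentiful, and it moves on to be cleaved and to enter the nucleus when sterols are scarce, where it switches on the enzymes and also Insig1. Efflux genes such as Abca1, Abcg5 and Abcg8 answer to the opposite signal, an excess of sterols read by the receptor LXR.

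SREBP2 is known to bind short promoter elements beside the factors NF-Y and Sp1, so the promoters of the genes were read first. RefSeq windows of 300 bases (250 before to 50 after each annotated start, GRCm38.p6) were found for 25 of the 32 genes, 32 windows in all. The classical sterol element TCACNCCAC, searched on both strands, was found in 1 of these 32 windows (3.12%) and in 1.24% of all 32851 windows. It lay in the window of Hmgcs1, the synthase at the head of the mevalonate pathway, on the coding strand of chromosome 13, and its first base was 137 bases before the start. The site with 10 bases on each side (chr13:119690204-119690232, plus strand) is shown because it is the single match to the element in the 32 windows, with the element in capitals. Fdps, Fdft1, Sqle, Stard4, Npc1, Soat2 and Scarb1 had no window and were not searched.

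Hmgcs1 site: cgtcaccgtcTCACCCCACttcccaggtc

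The NF-Y box CCAAT was found on either strand in 68.8% of the windows of these genes, covering 22 genes, against 37.4% of all windows. The GC box GGGCGG, the motif bound by Sp1, was found in 75% of them, covering 21 genes, against 35.7% of all windows. A match describes letters in a window and not an occupied site, and the lack of a match does not show the lack of a site. The gene whose signal changed most with PCN, Insig2, had 3 annotated windows on the minus strand of chromosome 1, none with the sterol element. Its outermost window held 3 NF-Y boxes, and the other windows held none. The 250 bases before that outermost start (chr1:121332590-121332839, minus strand, GRCm38.p6) are shown with the NF-Y boxes in capitals, ATTGG being the box on the opposite strand.

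Insig2 promoter: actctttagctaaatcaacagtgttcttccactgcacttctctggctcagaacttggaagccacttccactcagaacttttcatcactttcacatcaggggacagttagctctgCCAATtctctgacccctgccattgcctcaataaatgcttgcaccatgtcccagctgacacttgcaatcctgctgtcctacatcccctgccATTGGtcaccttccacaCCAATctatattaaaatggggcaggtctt

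Signals below are quantile-normalized log2 values, in which 1 unit is a doubling, and levels are compared between mice for the same probe and not between genes. Each array had from 29510 to 33321 of its 56605 probes well above background, and 32087 were tested. Arrays of WT PCN mice were the brightest before normalization (mean log2 signal 8.65 ± 0.09, n = 5) and those of Pxr-/- CONT mice the dimmest (8.41 ± 0.14, n = 6), so changes are relative to all probes of an array. Arrays were washed in 2 batches, and each batch held 3 arrays of every group except the second, which held 2 of WT PCN. The probe for Nr1i2, the gene of PXR, did not separate the genotypes (difference in control mice -0.03), and whether it lies in the deleted stretch was not given in the sources used here. The PXR target Cyp3a11 rose by 3.55 with PCN in WT mice (limma adjusted p = 4.12e-10), and its difference in Pxr-/- mice was 0.31 (adjusted p = 0.431). In whole liver, fewer cells of a type and less RNA per cell cannot be told apart. All 6 hepatocyte markers were well above background on every array. The log2 of their summed signals, which follows mainly the brightest markers Alb and Fgb, ran from 19.70 to 19.95 over all groups. Quantile normalization gives the brightest probes of every array nearly the same values, so this range cannot show how even the share of hepatocytes was.

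Few of the sterol genes passed the threshold with PCN, and the only one called was Insig2, which encodes a retention protein of SREBP2. A gene was called when its limma p-value, adjusted over all probes by Benjamini-Hochberg, was at most 0.05 and its fold change exceeded 1.5. In WT mice PCN called 1 of the 31 genes higher and 0 lower, where 3.38% of all probes were called higher and 2.13% lower. Of the 31 genes 16 were higher and 15 lower by sign, with a median change of 0.02, beside a median of -0.02 over all probes. By the adjusted p alone 4 were higher and 2 lower, beside 11% and 12% of all probes. In Pxr-/- mice PCN called 0 of the 31 genes (1.23% of all probes higher, 0.698% lower), and 2 were lower by the adjusted p alone (3.04% of all probes higher, 3.27% lower). The median change there was -0.03, beside -0.01 over all probes. Counted with the fold limit, the shares of these genes were close to or below those of all probes. By the adjusted p alone, 4 of 31 higher in WT mice and 2 of 31 lower in Pxr-/- mice were somewhat above the shares of all probes, and 2 of 31 lower in WT mice was below.

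In the difference between the PCN effects of WT and Pxr-/- mice, 1 gene was called, with a larger effect in WT mice, where 0.676% of all probes were called in that direction and 0.206% in the other. The same gene alone passed by the adjusted p (0.898% and 0.446% of all probes). Between genotypes, 0 genes were called in control mice (0.209% of all probes higher in Pxr-/- mice, 0.0623% lower), and 0 passed by the adjusted p alone (0.302% and 0.128%). In PCN-treated mice 1 gene was called lower in Pxr-/- mice (1.15% of all probes lower, 0.636% higher), and by the adjusted p alone 2 were higher and 1 lower (3.56% and 4.39% of all probes). These contrasts share groups of mice, so their results are not independent of one another.

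**Figure D1:**
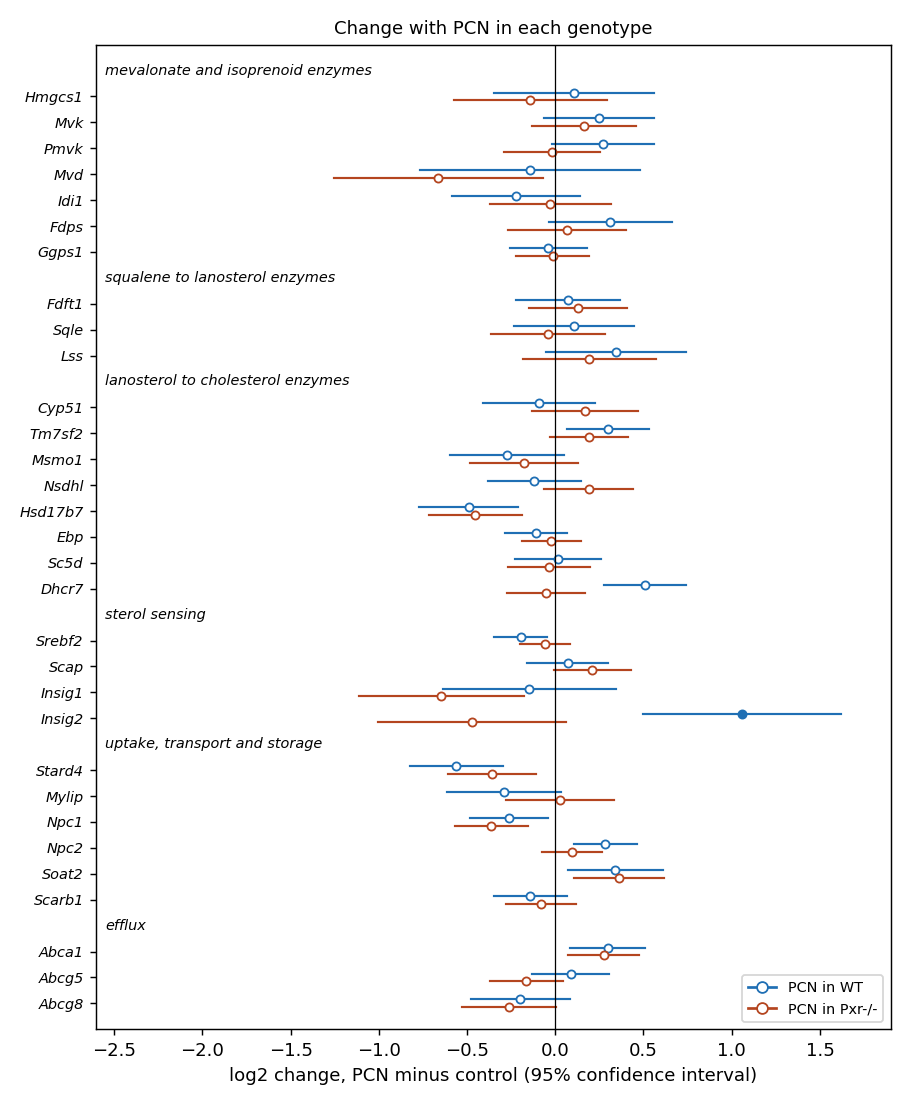
Log2 change with PCN (horizontal axis, PCN minus control) of the 31 genes in WT mice (blue) and Pxr-/- mice (red), grouped by role, with 95% confidence intervals from the fit and filled points for called changes. Most intervals cross 0 in both genotypes, and the filled point of Insig2 in WT mice, at 1.06, stands to the right of all others.

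Insig2 rose with PCN in WT mice and did not pass the threshold in Pxr-/- mice. Its log2 signal ran from 12.17 to 13.58 in WT CONT mice, with a median of 12.50. The 5 WT PCN mice were at 13.99, 13.28, 12.79, 14.17 and 14.36. In Pxr-/- CONT mice it ran from 12.41 to 13.24 (median 12.71), and in Pxr-/- PCN mice from 12.04 to 12.74 (median 12.18). WT CONT and WT PCN mice overlapped, as did the Pxr-/- groups, while every WT PCN mouse lay above every Pxr-/- PCN mouse. The fitted change was 1.06 ± 0.27 (SE) in WT mice, with a 95% interval from 0.50 to 1.62, which is 2.08-fold (limma adjusted p = 0.00680, n = 5 and 6). Pxr-/- mice gave -0.47 (limma adjusted p = 0.298, n = 6 and 6), and the effects of the genotypes differed by 1.53 (adjusted p = 0.0387). Under PCN, Pxr-/- mice were lower than WT mice by 1.41 ± 0.27 (SE; adjusted p = 0.00280). Control mice of the genotypes differed by 0.12, with an interval from -0.41 to 0.65.

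Insig2 was read by 3 kept probes on chromosome 1 (mm9, minus strand), and all 3 gave the same calls. The chosen probe (123201085 to 123201144) overlapped another (123201071 to 123201130), so these share sequence. The third spans a stretch of 236 bases on the genome with 60 bases of probe, so it is joined across a gap in the genome, and it gave 1.09 in WT mice (limma adjusted p = 0.00430) and -1.57 between genotypes under PCN (adjusted p = 7.50e-04). Its sequence is shown because it reads the Insig2 transcript at a place apart from the overlapping pair (chr1:123203517-123203752, minus strand, mm9).

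Insig2 probe: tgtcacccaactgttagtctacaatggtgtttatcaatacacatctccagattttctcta

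**Figure D2:**
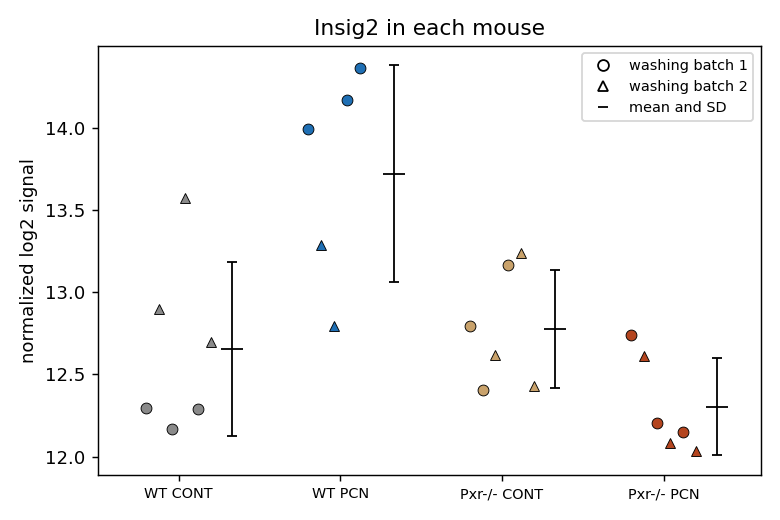
Normalized log2 signal of Insig2 (vertical axis) in each mouse of the 4 groups, with circles for washing batch 1, triangles for washing batch 2, and bars for the group mean and SD. The 3 WT PCN mice of batch 1 lie between 13.99 and 14.36, above all other mice, while the 2 WT PCN mice of batch 2 lie among the WT CONT mice.

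The rise of Insig2 was not the same in the washing batches. In batch 1, the 3 WT CONT mice were at 12.17 to 12.30 and the 3 WT PCN mice at 13.99 to 14.36, and the fit within this batch gave 1.92 (limma adjusted p = 2.66e-04). In batch 2, the 3 WT CONT mice were at 12.70 to 13.58 and the 2 WT PCN mice at 12.79 and 13.28, and the fit gave -0.02 (adjusted p = 0.979). A fit with a separate mean for each group in each batch, added after these values were seen, put the difference between the batches at -1.94 (limma, adjusted p = 0.116 over all probes). The 2 WT PCN mice with low Insig2, replicates 2 and 3, had Cyp3a11 signals of 17.29 and 17.20, beside 16.90 to 17.28 in the other 3, so the signal of that PXR target was not lower in them. The lower level in Pxr-/- PCN than in WT PCN mice was -1.81 within batch 1 (adjusted p = 0.00120) and -0.79 within batch 2, where it was not called (adjusted p = 0.303). The difference between the PCN effects was 2.35 in batch 1 and 0.50 in batch 2 (adjusted p = 0.00622 and 0.611). The calls of Insig2 in WT mice and between genotypes under PCN held in all 23 fits that left out 1 array, with changes from 0.91 to 1.31 and from -1.66 to -1.26. The call of the difference between the effects held in 8 of the 23, with adjusted p from 0.00721 to 0.0806. It was lost when replicate 1, 3, 5 or 6 of WT CONT, replicate 1, 4 or 5 of WT PCN, replicate 1, 3, 4 or 5 of Pxr-/- CONT, or replicate 3, 4, 5 or 6 of Pxr-/- PCN was left out.

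Insig1, the partner of Insig2 and itself a target of SREBP2, passed the threshold in no contrast. Its log2 signal ran from 9.99 to 11.14 in WT CONT mice (median 10.25), and the WT PCN mice were at 9.67, 10.52, 11.17, 9.94 and 9.84. The 3 WT PCN mice with the highest Insig2 were thus the 3 with the lowest Insig1, which is a description of 5 mice and splits them by washing batch. In Pxr-/- CONT mice Insig1 ran from 10.52 to 11.08 (median 10.82) and in Pxr-/- PCN mice from 9.73 to 10.86 (median 10.01), with overlap. The change was -0.15 in WT mice (interval -0.64 to 0.35) and -0.65 in Pxr-/- mice (interval -1.11 to -0.18), and neither passed the adjusted p (limma, 0.708 and 0.0888). Without Pxr-/- PCN replicate 5 the change in Pxr-/- mice was -0.82 and was called (adjusted p = 0.0249).

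Srebf2, the gene of SREBP2, varied little. It ran from 10.11 to 10.33 in WT CONT mice (median 10.23), and the WT PCN mice were at 9.87, 10.06, 10.26, 9.94 and 9.99. In Pxr-/- CONT mice it ran from 10.15 to 10.56 (median 10.32) and in Pxr-/- PCN mice from 10.16 to 10.44 (median 10.27). All 4 groups overlapped. Under PCN, Srebf2 was higher in Pxr-/- than in WT mice by 0.25 ± 0.07 (SE; limma adjusted p = 0.0398), under the fold limit, and its change with PCN in WT mice was -0.20 (adjusted p = 0.0550). A second Srebf2 probe had the opposite sign in both contrasts, -0.12 between genotypes under PCN (adjusted p = 0.780) and 0.43 with PCN in WT mice, and passed in neither. Scap, the escort of SREBP2, changed by 0.07 in WT and 0.21 in Pxr-/- mice, neither past the threshold.

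On the chosen probes, none of the 7 enzymes from Hmgcs1 to Ggps1 was called or passed the adjusted p in any contrast. Hmgcs1 ran from 14.28 to 15.46 in WT CONT mice (median 14.97), and the WT PCN mice were close together at 14.96, 14.83, 14.96, 15.18 and 15.14. It ran from 14.78 to 15.37 in Pxr-/- CONT mice (median 15.33) and from 14.19 to 15.56 in Pxr-/- PCN mice (median 15.17). The groups of Hmgcs1 overlapped throughout, and its changes with PCN were 0.10 in WT mice (interval -0.35 to 0.56) and -0.14 in Pxr-/- mice (interval -0.57 to 0.29). Changes of either sign within these bounds remained possible. The changes in WT mice were 0.25 for Mvk (mevalonate kinase), 0.27 for Pmvk (phosphomevalonate kinase), -0.14 for Mvd (the decarboxylase that makes the isoprenoid unit), -0.22 for Idi1 (the isomerase of that unit), 0.31 for Fdps (farnesyl diphosphate synthase) and -0.04 for Ggps1 (geranylgeranyl diphosphate synthase). Ggps1 had 5 other kept probes, of which 2 passed the adjusted p with PCN in WT mice (limma, -0.22 and -0.34, adjusted p = 0.0294 and 0.00769) and another was 0.18. Fdps was called with PCN in WT mice within washing batch 2 alone (0.84, adjusted p = 0.0325). Mvd had the largest spread within groups of all 31 genes, an SD of 0.55, and its change of -0.66 in Pxr-/- mice did not pass the adjusted p (limma, 0.176). The Hmgcs1 probe lies on a part of chromosome 13 that mm9 left unplaced.

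The 3 enzymes from squalene synthesis to lanosterol did not pass the threshold in any contrast either. Sqle, the epoxidase that commits squalene to sterols, ran from 13.03 to 14.02 in WT CONT mice (median 13.47), and the WT PCN mice were at 13.54, 13.64, 13.97, 13.42 and 13.43. It ran from 13.63 to 13.96 in Pxr-/- CONT mice (median 13.78) and from 13.22 to 14.07 in Pxr-/- PCN mice (median 13.84). The groups of Sqle overlapped, with changes of 0.10 in WT mice (interval -0.24 to 0.44) and -0.04 in Pxr-/- mice. Fdft1, squalene synthase, changed by 0.07 and 0.13, and Lss, which closes the ring to lanosterol, by 0.35 and 0.19 in WT and Pxr-/- mice.

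Among the 8 enzymes from lanosterol to cholesterol, Dhcr7 and Hsd17b7 moved in opposite directions with PCN in WT mice. Dhcr7, the reductase of the last step, was at 11.13, 11.40, 11.33, 11.03 and 11.07 in the WT PCN mice and from 10.45 to 11.13 in WT CONT mice (median 10.64), and the ranges overlapped by 1 control mouse. It rose by 0.51 ± 0.11 (SE) in WT mice, which is 1.42-fold and under the fold limit (limma adjusted p = 0.00248). In Pxr-/- mice Dhcr7 ran from 10.92 to 11.19 without and from 10.71 to 11.17 with PCN, a change of -0.05, and the difference between the effects was 0.56 (adjusted p = 0.0782). Within the batches the change of Dhcr7 in WT mice was 0.27 and 0.79, and the second was called, as was the change in the authors' normalized values. Without WT CONT replicate 3, the control mouse at 11.13, the change in WT mice (0.61) and the difference between the effects (0.67, adjusted p = 0.00861) were both called, and the genotype difference in control mice passed the adjusted p (0.41, adjusted p = 0.0463).

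Hsd17b7, a ketoreductase of sterol demethylation, fell by 0.49 in WT mice (1.41-fold lower; limma adjusted p = 0.0109) and by 0.45 in Pxr-/- mice (1.37-fold lower; adjusted p = 0.0365). The difference between these PCN effects, WT minus Pxr-/-, was -0.04, with an interval from -0.42 to 0.35. WT mice were at 12.61 ± 0.27 without and 12.12 ± 0.21 with PCN (SD, n = 6 and 5), and Pxr-/- mice at 12.77 ± 0.20 and 12.32 ± 0.22 (n = 6 each), with overlap in both genotypes. The falls rest on the chosen probe: 2 other kept Hsd17b7 probes gave -0.38 and -0.32 in WT mice and -0.09 and -0.34 in Pxr-/- mice, and passed in neither (limma adjusted p from 0.0519 to 0.762). Within the batches the change in WT mice was -0.69, which was called, and -0.23, and it was also called without WT PCN replicate 3.

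Nsdhl, a dehydrogenase of the same demethylation and a gene on the X chromosome, differed between genotypes under PCN. The 5 WT PCN mice were at 10.80, 10.83, 10.80, 10.17 and 10.49, and the Pxr-/- PCN mice ran from 10.89 to 11.38 (median 11.19), with no overlap. The difference was 0.55 ± 0.13 (SE; 1.47-fold; limma adjusted p = 0.0110), and in control mice it was 0.25, where WT CONT (10.43 to 11.15) and Pxr-/- CONT (10.80 to 11.10) overlapped. A second Nsdhl probe gave 0.16 under PCN and did not pass. Nsdhl crossed the fold limit under PCN without WT PCN replicate 1, 2 or 3 or Pxr-/- PCN replicate 3.

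The other late enzymes gave small changes on their chosen probes. In WT and Pxr-/- mice these were -0.09 and 0.17 for Cyp51, the lanosterol demethylase, 0.30 and 0.19 for Tm7sf2, a sterol reductase, -0.27 and -0.18 for Msmo1, a methylsterol oxidase, and -0.11 and -0.02 for Ebp, a sterol isomerase. None of these passed the adjusted p. A second Tm7sf2 probe did so in WT mice (0.46, limma adjusted p = 0.0292), and Msmo1 was called lower in WT mice within washing batch 1 alone. Sc5d, the desaturase before Dhcr7, changed by 0.02 and -0.04 on its chosen probe, which was at 14.72 ± 0.23 in WT CONT and 14.74 ± 0.13 in WT PCN mice. A dimmer second probe of Sc5d on chromosome 9 gave another result: it was called lower with PCN in WT mice (-0.62, limma adjusted p = 0.0405) and in Pxr-/- mice (-0.82, adjusted p = 0.0188). With PCN that probe went from 11.71 ± 0.21 to 11.07 ± 0.48 in WT mice and from 11.78 ± 0.29 to 10.96 ± 0.50 in Pxr-/- mice (SD, n as above), and it was well above background on every array. Which transcripts the Sc5d probes share was not tested. Among all kept probes of the 31 genes, no other probe differed in its call from the chosen one in any contrast. By the adjusted p alone, probes also differed for Ggps1, Tm7sf2, Nsdhl, Hsd17b7, Srebf2, Npc1, Soat2 and Abca1.

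**Figure D3:**
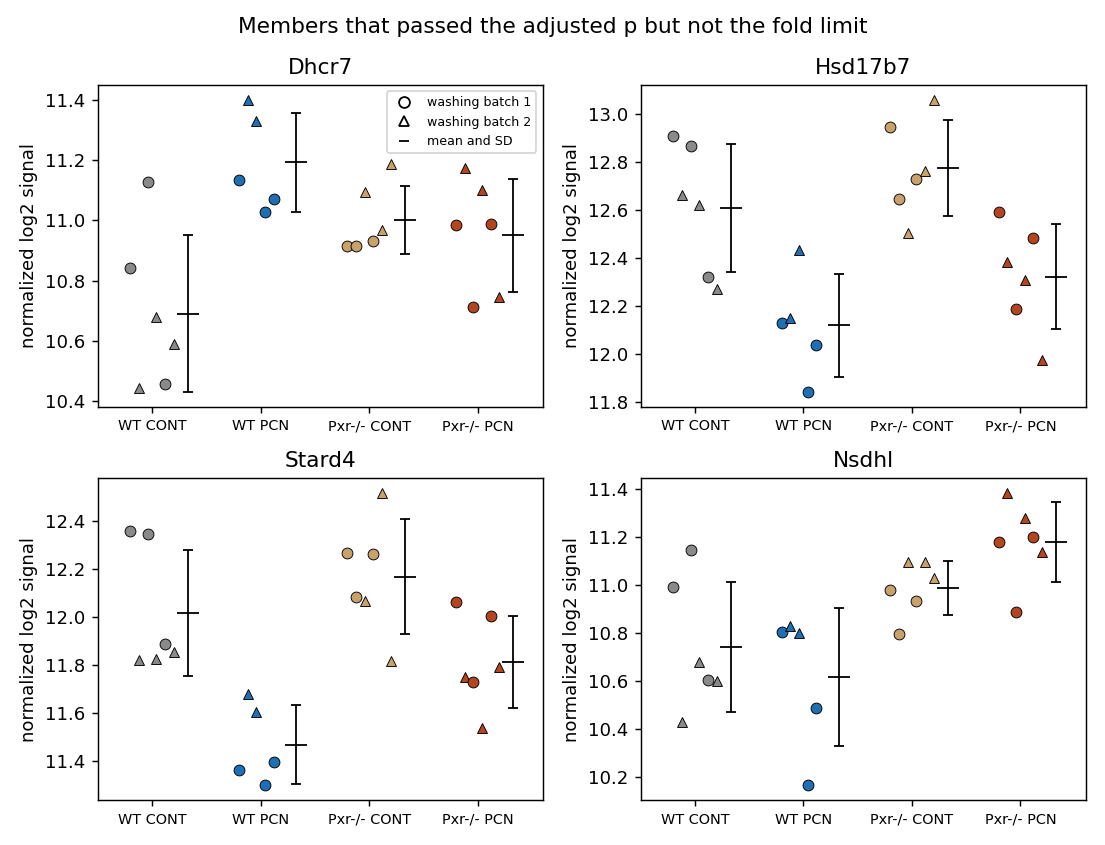
Normalized log2 signal (vertical axes, each with its own range) of Dhcr7, Hsd17b7, Stard4 and Nsdhl in each mouse, with circles and triangles for washing batches 1 and 2 and bars for the group mean and SD. The WT PCN mice of Stard4 lie wholly below the WT CONT mice, and those of Nsdhl wholly below the Pxr-/- PCN mice.

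Of the 6 genes of uptake, transport and storage, Stard4 and the lysosomal pair Npc1 and Npc2 passed the adjusted p on their chosen probes in some contrast, Soat2 did so on a second probe, and none was called. Stard4, a carrier that moves sterol between membranes, was at 11.36, 11.68, 11.60, 11.30 and 11.39 in the WT PCN mice and from 11.82 to 12.36 in WT CONT mice (median 11.87), with no overlap. It fell by 0.56 ± 0.13 (SE) in WT mice, 1.47-fold (limma adjusted p = 0.00281), and Pxr-/- mice, whose groups overlapped, gave -0.36 (adjusted p = 0.0779). The difference between these effects was -0.20, with an interval from -0.57 to 0.16. A second Stard4 probe also passed in WT mice (-0.49, adjusted p = 0.0250). Within the batches the change of Stard4 in WT mice was -0.85, which was called, and -0.19. The call was also made when replicate 2, 4 or 5 of WT CONT, or replicate 2 or 3 of WT PCN, was left out.

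Npc1, the membrane protein that lets cholesterol leave the lysosome, fell by 0.36 ± 0.10 (SE) with PCN in Pxr-/- mice (limma adjusted p = 0.0338) and changed by -0.26 in WT mice (adjusted p = 0.0778). Which genotype passed depended on the probe: the other 2 kept Npc1 probes gave -0.48 and -0.45 in WT mice (adjusted p = 0.0417 and 0.0519) and -0.23 and -0.21 in Pxr-/- mice (adjusted p = 0.429 and 0.469). Npc2, its soluble partner, rose by 0.28 ± 0.09 (SE) in WT mice (1.22-fold; adjusted p = 0.0208) and changed by 0.10 in Pxr-/- mice. The differences between the PCN effects, WT minus Pxr-/-, were 0.10 for Npc1 and 0.19 for Npc2, neither past the threshold. Soat2, which esterifies cholesterol for storage, was 0.34 higher in WT mice and 0.36 higher in Pxr-/- mice (adjusted p = 0.0590 and 0.0803). Its second probe passed in both, with 0.57 in WT mice and 0.53 in Pxr-/- mice (limma adjusted p = 0.00720 and 0.0251). Mylip, a ubiquitin ligase that lowers lipoprotein receptors, changed by -0.29 and 0.03, and Scarb1, the HDL receptor, by -0.14 and -0.08.

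Among the 3 efflux genes, Abca1, the lipid transporter that starts HDL formation, was the one that passed the adjusted p. It ran from 11.37 to 11.66 in WT CONT mice (median 11.62), and the WT PCN mice were at 12.09, 11.64, 11.83, 11.92 and 11.91. It ran from 11.33 to 11.70 in Pxr-/- CONT mice (median 11.51) and from 11.41 to 12.01 in Pxr-/- PCN mice (median 11.87). Of the WT PCN mice 4 of 5, and of the Pxr-/- PCN mice 4 of 6, lay above all controls of their genotype. Abca1 rose by 0.30 ± 0.10 (SE) in WT mice (1.23-fold; limma adjusted p = 0.0386), Pxr-/- mice gave 0.27 (adjusted p = 0.0943), and the effects differed by 0.02 (interval -0.27 to 0.32). A second Abca1 probe gave 0.27 in WT mice and did not pass (adjusted p = 0.106). Abcg5 and Abcg8, the partners of the sterol exporter into bile, changed by 0.09 and -0.20 in WT mice and by -0.16 and -0.26 in Pxr-/- mice, none past the threshold.

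Without PCN, most sterol genes had a slightly higher signal in Pxr-/- than in WT mice, and none passed the threshold. Of the 31 genes, 27 were higher in Pxr-/- CONT mice by sign, beside 48.2% of all probes, with a median difference of 0.17 beside -0.01 over all probes. All 18 synthesis enzymes were higher, from 0.03 (Ebp) to 0.46 (Mvd), with a median of 0.23 and 0 called. The interval excluded 0 for Pmvk (0.44), Fdps (0.36) and Dhcr7 (0.31) among the enzymes and for Abcg5 (0.26) and Abcg8 (0.35) among the efflux genes, and the lowest limma adjusted p of an enzyme was 0.175. Enzymes vary together from mouse to mouse, so their number is not a number of independent observations. The median over the 18 enzymes was 0.05 within washing batch 1, with 12 higher, and 0.39 within batch 2, with 16 higher. In the authors' own normalized values 15 of the 18 were higher, with a median of 0.11, where those values moved the median of all probes by -0.10. In the same contrast 0 of 5 cholangiocyte, 0 of 6 Kupffer cell and 1 of 6 endothelial markers were higher in Pxr-/- mice, with medians of -0.40, -0.12 and -0.13, and none was called. Of the other markers, 2 of 6 for stellate cells, 3 of 5 for lymphocytes and 3 of 6 for hepatocytes were higher, and the part of these cells in the difference was not tested.

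Under PCN 24 of the 31 genes were higher in Pxr-/- than in WT mice, beside 52.5% of all probes, with a median of 0.12. This direction depended on the scaling: in the authors' normalized values 8 of the 31 were higher, the median was -0.16, and the median of all probes had moved by -0.19. Of the 18 enzymes, 16 were higher with a median of 0.13, 17 within batch 1 and 8 within batch 2. The medians of the PCN effects depended on the scaling as well. In WT mice the median over the 18 enzymes was 0.04 with 10 higher, and in the authors' values 0.27 with 15 higher, where the median of all probes moved by 0.13. Within washing batches 1 and 2 the enzymes' median in WT mice was -0.08 and 0.35, with 8 and 14 higher. The share of calls that were higher among all probes called was 61.3% in WT mice and 84.4% in the authors' values. It was 63.9% and 75.6% in Pxr-/- mice, 77.0% and 47.0% between control genotypes, 35.6% and 4.80% between genotypes under PCN, and 76.7% and 88.8% for the difference between the effects.

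**Figure D4:**
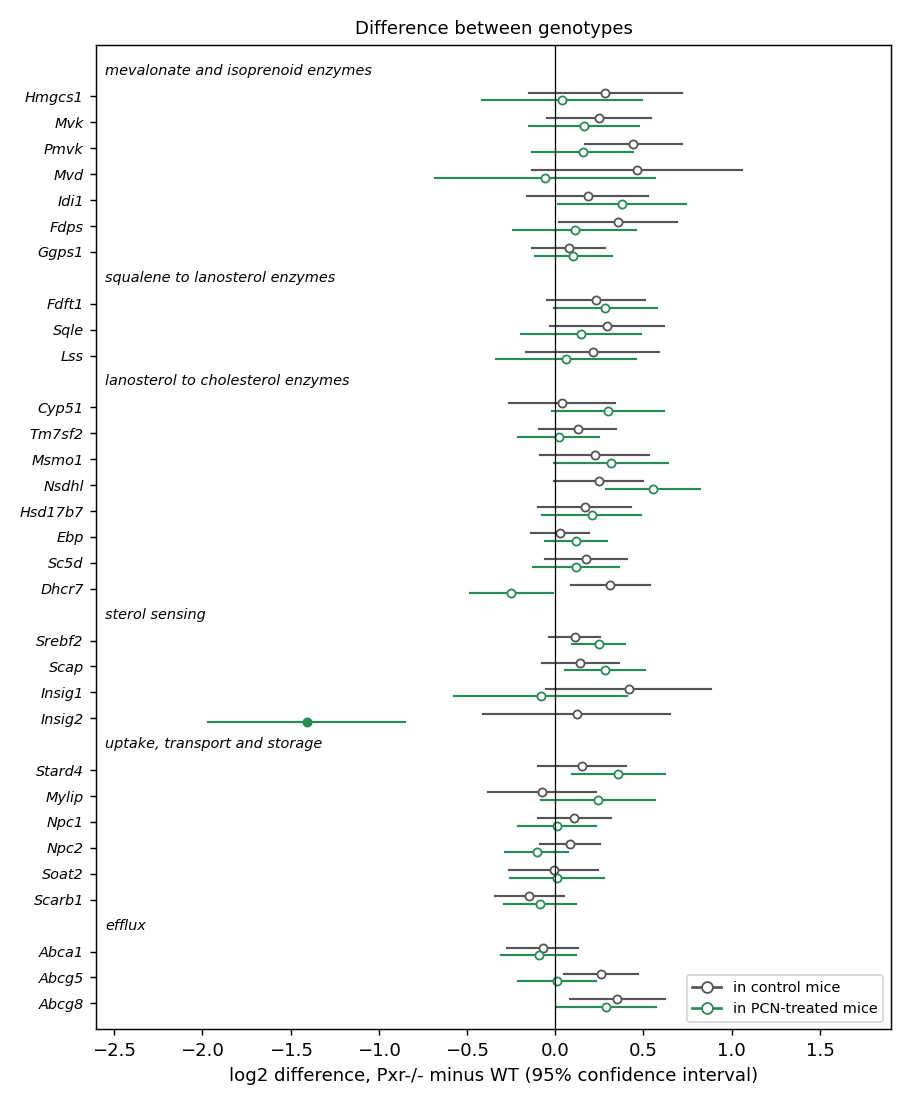
Log2 difference between genotypes (horizontal axis, Pxr-/- minus WT) of the 31 genes in control mice (grey) and PCN-treated mice (green), grouped by role, with 95% confidence intervals from the fit and filled points for called differences. In control mice all 18 enzymes lie to the right of 0, by 0.03 to 0.46, and in PCN-treated mice Insig2 lies far to the left at -1.41.

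The spread between mice of a group was wide for several of these genes. The median SD within a group was 0.23 over the 31 genes, from 0.12 for Srebf2 to 0.55 for Mvd, beside 0.18 over all probes tested. Much of this spread was shared by the enzymes of a mouse. In WT CONT replicate 3, 16 of the 18 enzymes lay above the group mean and in 10 it was the highest of its group, whereas in WT CONT replicate 5 only 1 lay above the mean and in 9 it was the lowest. WT PCN replicate 3 was the highest of its group in 12 enzymes and replicate 4 the lowest in 11. In Pxr-/- CONT mice replicate 2 was the lowest in 11, and in Pxr-/- PCN mice replicate 6 was the lowest in 9, with a mean deviation of -0.30, while replicate 1 had 17 of 18 above the mean. The mean deviation of the 18 enzymes ran from -0.30 to 0.36 over all mice.

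**Figure D5:**
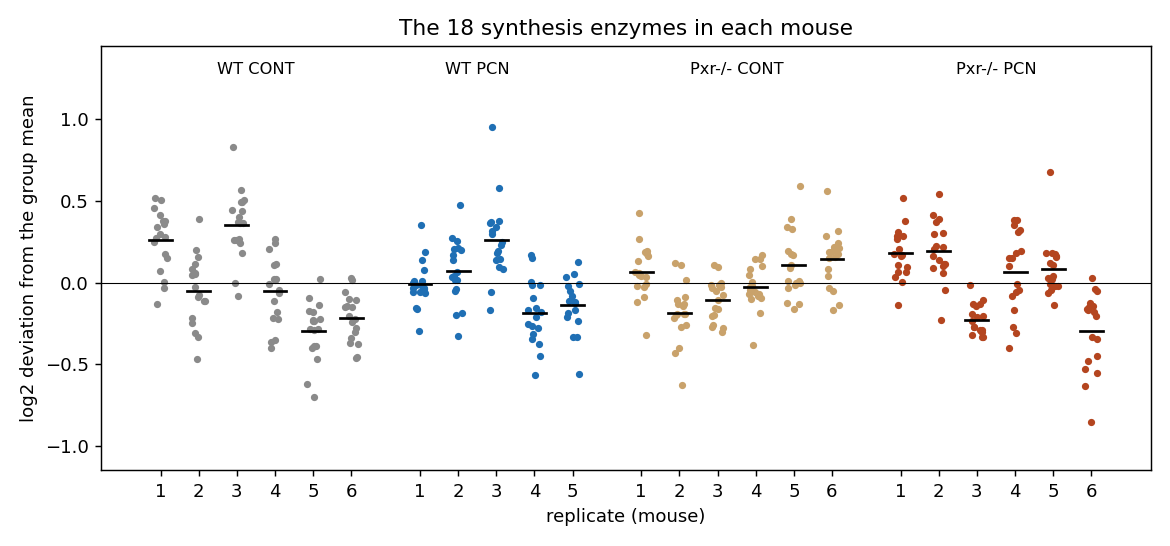
Log2 deviation from the group mean (vertical axis) of each of the 18 synthesis enzymes in every mouse (horizontal axis, replicates within the 4 groups), with a black bar for the mean over the enzymes. Whole columns of points shift together, from a mean of -0.30 in Pxr-/- PCN replicate 6 to 0.36 in WT CONT replicate 3.

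Neighbouring pathways were read from 3 lists. Of 7 genes for SREBP processing and turnover, 1 was called higher with PCN in WT mice and 0 in Pxr-/- mice, where 3.38% and 1.23% of all probes were called higher. It was Erlin1, an endoplasmic reticulum protein that takes part in the breakdown of sterol regulators (0.67, limma adjusted p = 1.09e-04), named here after its value was seen. In Pxr-/- mice 1 of the 7 was higher by the adjusted p alone (3.04% of all probes), and the highest change was 0.47, that of Erlin1. The differences between the effects ran from -0.13 to 0.20 over this list. Of 8 genes of the branch to dolichol, ubiquinone and prenylated proteins, 0 were called in any contrast, with 2 higher and 1 lower by the adjusted p alone in WT mice (11% and 12% of all probes) and a median of 0.10. Of 13 other genes of cholesterol handling, 1 was called higher in WT mice, Ch25h, which makes an oxysterol that represses SREBP2 processing (1.62, adjusted p = 2.16e-05), and 1 in Pxr-/- mice, Cyp27a1, an oxysterol and bile acid enzyme (0.67, adjusted p = 0.0302). Ch25h was also called lower in Pxr-/- than in WT mice under PCN (-1.12, adjusted p = 0.00284), as were 1.15% of all probes. Shares of 1 in 7 or 1 in 13 genes rest on a single gene each. Both were named after their values were seen, and no gene of the 3 lists was called in the difference between the effects or between control genotypes.

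Markers of other liver cells were read beside these results. With PCN in WT mice, 1 of 5 measured cholangiocyte markers was called higher, Sox9 (0.76, limma adjusted p = 0.0109). The log2 of the summed signals of the list ran from 10.50 to 12.20 in WT CONT, 11.68 to 12.96 in WT PCN, 10.80 to 11.70 in Pxr-/- CONT and 11.13 to 12.51 in Pxr-/- PCN mice. This sum follows mainly the brightest marker, Spp1 (mean log2 signal 11.28). Sox9 was also called lower in Pxr-/- than in WT mice under PCN (-0.76, adjusted p = 0.0279). Of the 5 cholangiocyte markers, 4 were higher with PCN in WT mice and 4 in Pxr-/- mice, with medians of 0.73 and 0.62. The differences between the effects ran from -0.67 to 0.22 over these markers, and 0 were called. None of 6 Kupffer cell, 6 endothelial, 6 stellate cell and 5 lymphocyte markers was called in any contrast. Of 6 hepatocyte markers 1 was called, Apoa1 with PCN in Pxr-/- mice (0.62, adjusted p = 9.55e-04). Cftr and Cd79a were too dim to be tested, and Epcam was well above background on 10 of the 23 arrays. The part of these cells in the changes of the sterol genes was not tested.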

How the data were processed

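Per the file headers, the deposited scanner files are output of Agilent Feature Extraction 10.10.1.1, with the intensity of each spot on a linear scale, not normalized between arrays. The authors also deposited log2 values of the same arrays, filtered, corrected for washing batch and normalized with CrossNorm, and these served as an alternative. From the scanner files, log2 median signals of non-control spots without outlier flags were averaged per probe, probes were kept (32087) if over 50% of a group's arrays had them well above background, and arrays were quantile normalized. Differences were fitted with limma 3.58.1 in R 4.3.3 (with the data.table package, version 1.17.8) on all 23 arrays, with terms for group and washing batch, 18 residual degrees of freedom and Benjamini-Hochberg adjustment over all probes. The fit was tested on simulated arrays in which probes varied independently and effects were the same in both batches. That test did not cover shifts shared by the genes of a mouse or effects that differ between batches. The groups, replicate numbers and batches are those of the labels, and each array is a separate mouse. Arrays give no counts, so their number limits the precision.

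The genes, lists and tests were chosen with earlier results of these data known. All 31 genes are accounted for. Values per mouse are given for genes called in any contrast and for Srebf2, Insig1, Sqle, Hmgcs1 and Abca1, and some were added for genes past the adjusted p. Neighbouring lists and cell type markers were read from 1 probe per gene by the same rule. Promoters and names are those of RefSeq for GRCm38.p6, in which all 31 names were found, and probe positions are those of the array files (mm9). Alternatives were the scanner's processed signal scaled to its 75th percentile, normexp background correction with an offset of 50, the authors' values, no filter, no batch term, the slide as a random block, the replicate number as a block, each batch alone, the mean of all probes of a gene, the adjusted p alone, and leaving out each array. All arrays were scanned on the same day, so scan date was no batch. Figures were drawn with matplotlib 3.10.9 in Python 3.11.15.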

Additional observations from a re-analysis of the deposited data

Results flagged for a closer look

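Among the 124 combinations of gene and group, 4 held a mouse far from the rest of its group by Dixon's test, and chance alone gives about 1 in 20. The gap to the nearest mouse as a share of the group's range was 0.720 for Tm7sf2 in Pxr-/- CONT replicate 5, which at 14.93 was the highest, above the next at 14.59. It was 0.731 for Msmo1 in WT PCN replicate 3, the highest at 14.87 above 14.25, and 0.754 for Scarb1 in WT PCN replicate 2, the lowest at 12.20 below 12.68. It was 0.642 for Abcg8 in Pxr-/- PCN replicate 6, the highest at 12.95 above 12.63. WT PCN replicate 3 is also the mouse with the highest synthesis enzymes of its group.

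The PCN effect on Insig2 differed between the genotypes by 1.53 on the log2 scale (limma interaction term, adjusted p = 0.0387). The effect was 1.06 in WT mice and -0.47, not called, in Pxr-/- mice. The call of the difference held in 8 of the 23 fits that left out 1 array. It was lost without the filter and within washing batch 2.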

How the results depend on the processing

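Of the 31 genes, the call of Insig2 with PCN in WT mice and between genotypes under PCN was kept in all alternatives except within washing batch 2, where its change in WT mice reversed in sign to -0.0181 and its genotype difference under PCN, -0.79, was not called. Genes called with PCN in WT mice numbered 2 in the authors' values (where 1925 of all 32574 probes were called higher and 355 lower), 4 within batch 1 (1188 higher and 899 lower of 32087), 2 within batch 2 (636 and 407), 6 by the adjusted p alone, and 1 to 3 when 1 array was left out. With PCN in Pxr-/- mice they numbered 2 by the adjusted p alone and 0 to 1 when 1 array was left out. Between genotypes under PCN they numbered 0 within batch 2 (19 higher and 126 lower among all probes), 3 by the adjusted p alone, and 1 to 2 when 1 array was left out. For the difference between the effects they numbered 0 without the filter (182 and 55 of 56605 probes), 0 within batch 2 (109 and 18), and 0 to 1 when 1 array was left out, where the gene without WT CONT replicate 3 was Dhcr7. The median change of the 31 genes with PCN in WT mice was 0.26 in the authors' values and 0.20 within batch 2. The median genotype difference in control mice was 0.0326 within batch 1 and 0.30 within batch 2, and under PCN it was -0.16 in the authors' values. The median difference between the effects was 0.20 in the authors' values, -0.0889 within batch 1 and 0.27 within batch 2. The cause of these shifts was not tested. Whether the replicate numbers pair the mice was not settled. Correlations of same-numbered mice ran from -0.09 to 0.49, with 9 of 22 over 0.1, and the same number was the best match in 7 of 22. Between WT CONT and Pxr-/- CONT mice, replicates 1 to 4 gave 0.37, 0.49, 0.23 and 0.24, each the best match. With the replicate block the counts of calls were unchanged in all 5 contrasts, and the median change in WT mice was -0.02. Of 155 single changes under all alternatives, 18 of 5115 values lost a call with the same sign, 1 lost it with the sign reversed, and 19 gained one. A further 259 values changed sign without being called in either setting. With 5 or 6 arrays a group, changes anywhere within the interval of a gene remained possible, and these intervals were widest for Mvd.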
